A study of Mus musculus with 36 samples.

Results

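The genes described here encode nuclear subunits of the oxidative phosphorylation system and were chosen by name and depth. Their symbols start with Nduf followed by a, b, c, s or v and a number (complex I), are Sdha to Sdhd (complex II), or start with Uqcr (complex III), Cox4 to Cox8 followed by a, b or c (complex IV) or Atp5 (complex V), and each had at least 100 reads in every one of the 36 libraries. The name part of the rule matched 82 genes and 72 of them had the reads, out of 7011 genes that passed the same read minimum and 22979 genes listed in all. Complex I gave 34 of 37 matched genes, complex II 4 of 4, complex III 8 of 8, complex IV 10 of 16 and complex V 16 of 17. The lowest library count was 100 reads for Ndufc1 and 102 for Ndufs7, just inside the minimum, and 66 for Ndufs5 and 85 for Ndufb4, just outside it. The other genes left out were Cox8b, Cox6a2, Cox8c, Cox7b2, Ndufa4l2, Atp5s, Cox6b2 and Cox7a1. Ndufa4 is grouped by its name with complex I although the protein is now counted to complex IV, Cox7a2l is a factor that binds complexes III and IV into supercomplexes, and Atp5sl is no core subunit of the ATP synthase.

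Oxidative phosphorylation takes place in the inner mitochondrial membrane. Complex I oxidises NADH and complex II oxidises succinate, both pass electrons to ubiquinone, complex III passes them on to cytochrome c and complex IV to oxygen. Complexes I, III and IV pump protons, and the ATP synthase, complex V, uses the proton gradient to make ATP. Most subunits are encoded in the nucleus and made on cytosolic ribosomes, and a small set is encoded in mitochondrial DNA. The mitochondrially encoded subunits were not analysed here. Mouse embryonic stem (mES) cells rely on both glycolysis and respiration, and mRNAs of respiratory subunits are known as abundant, short and stable transcripts.

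The data are SLAM-seq libraries of total RNA, in which 4-thiouridine (4sU) taken up into new RNA is read as C in place of T, so that a conversion marks RNA made during labelling. The cells were female mES cells from a cross of Mus musculus castaneus (Cast) and 129S mice, grown on feeder cells that were removed before the experiment by preplating, and they carry a doxycycline-controlled TetOn promoter at Xist on the 129S allele and a Bgl stem-loop array in Xist. In 3 lines, each of them 1 clone, an FKBP12 F36V degron tag sits on METTL3 (the clone is named 12D), on YTHDC1 (named Y12H) or on ZCCHC8 (named Z12H). METTL3 is the enzyme that writes N6-methyladenosine (m6A) into mRNA, YTHDC1 a nuclear protein that binds m6A, and ZCCHC8 a subunit of the NEXT complex that delivers nuclear RNA to the exosome. Every group received 1 µg/ml doxycycline for 24 h up to the end of labelling. It was given for 20 h before and 4 h during a 4 h pulse of 500 µM 4sU, so Xist was induced in controls as well. Per the study's methods the chase medium also held 1 µg/ml doxycycline, so groups chased for 90 and 180 min were exposed to it for longer. The dTAG groups received dTAG-13, the compound that sends the tagged protein to degradation, from 2 h before doxycycline onwards, and the Ctrl groups did not. Libraries were made at 0, 90 and 180 min of a chase with 50 mM uridine, which gave 18 groups of 2 replicates, so each line has 12 libraries and each of its arms 6. No line without a degron tag was given dTAG-13, so effects of the compound and of the loss of the protein cannot be told apart.

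Depth was 5274684 to 18652000 reads per library, lowest in the ZCCHC8 line. The members held 1.00% to 1.54% of a library's reads. The 8 mES cell markers summed to 2078 to 3191 CPM (depth-scaled reads, normalised by TMM within a line), 6 feeder fibroblast markers to 2.96 to 14.2 CPM, with 1 of the 6 at 0 in all METTL3 Ctrl libraries, and 3 primitive endoderm markers to 1.57 to 5.71 CPM. The mRNA of the tagged gene, on which the degron does not act, had a median of 57.8 CPM in Ctrl and 58.3 in dTAG for Mettl3, 256 and 367 for Ythdc1, and 33.7 and 35.5 for Zcchc8, each in its own line. In bulk RNA, fewer cells of a type and less RNA per cell cannot be told apart.

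The sequence of the promoters and of m6A-type motifs in the transcripts was compared first, since it was not used in the rule. RefSeq promoter windows of 300 bases, from 250 bases before to 50 bases after the start (GRCm38.p6, the same genome as mm10), were matched for 60 of the 72 members, with 65 windows. The 3 windows printed here belong to the member that fell with dTAG-13 in 2 lines, the member with the highest level per length, and the member that rose in counts and fell in label with ZCCHC8 targeted. Capitals mark matches, on either strand, to 6 motifs: CCGGAAG (ETS type), GCATGCG (NRF1 type), AAGATGG (YY1 type), GGGGCGG (GC box), CCAAT and TATAAA.
Sdhb, chr4:140961021-140961320, plus strand: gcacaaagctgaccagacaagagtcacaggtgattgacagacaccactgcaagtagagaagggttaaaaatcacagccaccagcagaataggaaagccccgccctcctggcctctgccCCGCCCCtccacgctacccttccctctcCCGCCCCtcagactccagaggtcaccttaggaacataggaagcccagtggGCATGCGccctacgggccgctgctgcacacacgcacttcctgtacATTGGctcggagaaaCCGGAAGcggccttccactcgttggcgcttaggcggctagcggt
Atp5b, chr10:128083057-128083356, plus strand: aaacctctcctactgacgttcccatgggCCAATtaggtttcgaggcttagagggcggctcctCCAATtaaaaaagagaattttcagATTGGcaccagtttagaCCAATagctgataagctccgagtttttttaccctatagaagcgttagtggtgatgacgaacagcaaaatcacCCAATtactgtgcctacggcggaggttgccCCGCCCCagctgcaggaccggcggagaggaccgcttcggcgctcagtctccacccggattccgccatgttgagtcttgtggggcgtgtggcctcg
Cox7a2l, chr17:83514284-83514583, minus strand: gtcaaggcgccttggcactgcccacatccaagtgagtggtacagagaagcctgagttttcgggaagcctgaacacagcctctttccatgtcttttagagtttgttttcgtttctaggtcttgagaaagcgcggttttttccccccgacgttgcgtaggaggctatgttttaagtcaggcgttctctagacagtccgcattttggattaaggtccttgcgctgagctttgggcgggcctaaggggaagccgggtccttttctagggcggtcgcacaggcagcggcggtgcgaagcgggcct
The Sdhb window holds an ETS-type, an NRF1-type and a CCAAT match and 2 GC boxes. The Atp5b window holds 5 CCAAT matches and 1 GC box, and the Cox7a2l window holds no match to these letters.

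Among the 65 member windows, 16.9% held the NRF1-type letters, against 7.66% of 7001 windows of genes that passed the read minimum and 3.58% of all 32851 windows. The YY1-type letters were in 15.4%, against 8.50% and 6.34%. The ETS-type letters were in 24.6%, against 21.4% and 8.86%. The GC box was in 24.6% of member windows, against 45.0% of the windows of expressed genes and 23.2% of all. CCAAT was found in 40%, against 38.4% and 37.4%, and TATAAA in 9.23%, against 6.40% and 13.6%. An ETS-type match can run into a YY1-type match, since the one ends and the other begins with AAG, and a match describes letters, not a bound site.

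The members are short genes with few exons. In GENCODE M21, the median length of a gene's longest protein-coding transcript was 913 nt for the members and 3373 nt for the 7004 annotated genes with 100 reads everywhere, with 4 and 10 exons. Base composition was alike, with 24.4% and 24.8% U and 50.7% and 49.4% GC. The letters GGACT, the most common core of m6A sites, were absent from the transcript of 24 members (33.3%) and of 7.48% of the expressed genes, and per kb the medians were 0.997 and 1.00. In the 48 other members the letters occurred 38 times in the 3′ untranslated part, 38 times in the coding part and 13 times in the 5′ untranslated part. A total of 26 members (36.1%) overlapped a gene on the opposite strand, and 11 (15.3%) a gene on the same strand. Of the expressed genes 43.9% and 25.6% did. The kit makes strand-specific libraries, but whether the counting used the strand was not stated, and same-strand overlaps cannot be told apart either way. Uqcrh, Atp5c1, Atp5k and Atp5l have pseudogenes named by their symbol and -ps, and their counts are less certain for that reason. Pseudogenes under other names were not searched for, so the other members may have them too.

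Windows of 25 bases around GGACT (capitals) are given for 4 members with these letters whose label changed with dTAG-13, all read in mm10 from the strand of the gene. Uqcrfs1, Atp5sl and Cox8a were called in the METTL3 line and Cox7a2l in the ZCCHC8 line. Of the other members called in label, Ndufa12, Ndufb6, Uqcr10, Ndufb3 and Ndufv3 had no such letters. Ndufa2, Ndufa3, Ndufa13, Uqcrq, Ndufv2, Uqcrc2 and Ndufs1 had them. Sdhb had no such letters in its transcript.
Uqcrfs1, chr13:30540710-30540734, minus strand, 3′ untranslated: ttagacacgtGGACTcagggcctag
Atp5sl, chr7:25625007-25625031, plus strand, 3′ untranslated: gactgagtcaGGACTggctgactgc
Atp5sl, chr7:25625166-25625190, plus strand, 3′ untranslated: tggcctacacGGACTagagaccagc
Atp5sl, chr7:25625352-25625376, plus strand, 3′ untranslated: acctgtgcggGGACTttagagtgta
Cox8a, chr19:7217533-7217557, minus strand, 5′ untranslated: ccctgaccttGGACTggtcctcgtc
Cox7a2l, chr17:83502575-83502599, minus strand, 3′ untranslated: tgcctgtggaGGACTggttcacttt
Cox7a2l, chr17:83502280-83502304, minus strand, 3′ untranslated: cagggcctcgGGACTcaggcggtgt
Cox7a2l, chr17:83501940-83501964, minus strand, 3′ untranslated: atgattgaccGGACTgcggaataaa
Whether these adenosines are methylated was not measured in these libraries.

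Levels per length differed widely among the members. The mean over the 18 Ctrl libraries, in CPM per kb of the length listed with the counts, had a median of 93.4 over the members and 21.7 over all 7011 genes. The minimum of 100 reads keeps a short gene only where its level per kb is high, and the members are short, so the rule itself raises their median. These levels set libraries of separately scaled lines side by side. The complex medians were 77.3 for complex I, 101 for complex II, 134 for complex III, 196 for complex IV and 110 for complex V. Atp5b, the catalytic beta subunit of the ATP synthase, was highest at 948 ± 157 CPM per kb (SD, n = 18), with libraries from 740 to 1286. Atp5a1, the alpha subunit, followed at 492 ± 95.3, and its highest library (708) lay below the lowest of Atp5b. Next came Cox8a at 314 ± 59.7, Uqcrb at 309 ± 49.1 and Atp5h at 300 ± 42.3, which did not differ beyond their spread. The lowest were Ndufb2 at 10.4 ± 2.63, Atp5l at 15.3 ± 4.11 and Atp5sl at 16.5 ± 2.82. The listed length of Ndufa11, Ndufa4, Ndufb5, Ndufb7, Cox5a, Cox6c, Atp5e, Atp5j2 and Atp5l was more than 2 times that of the GENCODE transcript (6310 against 544 nt for Atp5l), which lowers their level per kb.

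How far members differ in new RNA was read from the new-to-total ratio, the part of the reads of a gene that GRAND-SLAM attributes to labelled RNA. At the end of the pulse the members held little new RNA. The members' median in Ctrl at 0 min was 17.4% (METTL3 line), 16.4% (YTHDC1 line) and 15.6% (ZCCHC8 line), against 59.9%, 57.6% and 51.7% over all genes tested, and 71 of 72 members lay below the all-gene median in each line. Complex IV was lowest, with medians of 15.8%, 14.1% and 12.3%, and complex I highest, with 18.5%, 17.5% and 17.1%. The members' ratios ran in nearly the same order in the lines, with Pearson r of 0.97 between METTL3 and YTHDC1, 0.97 between METTL3 and ZCCHC8 and 0.96 between YTHDC1 and ZCCHC8 across the 72 genes, which are not independent replicates.

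Over the 6 Ctrl libraries at 0 min, Atp5sl had the highest ratio, 60.5% ± 5.98 (SD), with libraries from 50.9% to 66.4%. Ndufb2, an accessory subunit of the membrane arm of complex I, followed at 37.0% ± 6.45 and Sdhd, a membrane anchor of succinate dehydrogenase, at 34.4% ± 2.03, and these differed by less than their spread. Cox7a2l at 29.6% ± 2.81 and Uqcrfs1, the Rieske iron-sulfur protein of complex III, at 29.1% ± 1.98 came next and were not separated either. At the low end stood Ndufa9 at 10.0% ± 1.34, Cox6b1 at 10.4% ± 2.22 and Atp5c1, the gamma subunit of the ATP synthase, at 10.6% ± 1.66. Their ranges overlapped.

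**Figure D1:**
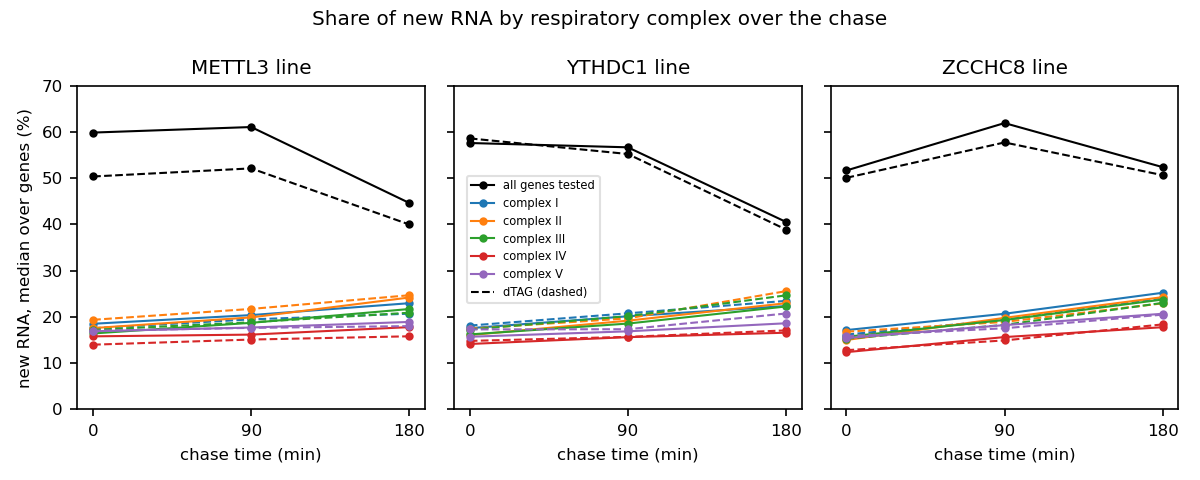
Median new-to-total ratio (percent of reads) at 0, 90 and 180 min of chase, for each complex (colours) and for all genes tested (black), in 1 panel per line, with solid lines for Ctrl and dashed lines for dTAG. Every complex starts far below the all-gene median and rises during the chase, and in Ctrl the all-gene median is lower at 180 min than at 0 min in the METTL3 and YTHDC1 lines.

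During the chase the ratio of most members rose. In Ctrl the median at 180 min was 20.5%, 20.0% and 22.0% in the METTL3, YTHDC1 and ZCCHC8 lines, against 44.7%, 40.6% and 52.4% over all genes. As a percentage of the 0 min ratio, the members' median at 180 min was 124%, 124% and 149%, and that of all genes 84.3%, 80.6% and 110%. The ratio was above its 0 min value in both replicates for 59, 60 and 68 of 72 members (81.9%, 83.3% and 94.4%), against 33.6%, 32.7% and 48.2% of all genes. In dTAG libraries the members' medians were 120%, 125% and 139%. By T-to-C conversions over coverage, in place of the modelled ratio, the members' medians were 105%, 103% and 112%, so the rise was smaller. Those of all genes were 63.1%, 60.0% and 74.8%. By this measure 47, 40 and 54 members (65.3%, 55.6% and 75%) lay above 100%, against 20.9%, 20.4% and 31.2% of all genes. A ratio above its starting value means that a decay rate cannot be read from it. It is a share of a gene's reads, not an amount of labelled RNA, and why the share rose was not tested.

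The size of this rise differed between members. As means over the 3 lines in Ctrl, Ndufc2, an accessory subunit of complex I, was at 184% of its 0 min ratio (143% to 251% among lines), Ndufv2, an iron-sulfur subunit of the NADH-oxidising arm, at 182%, Ndufs7, which carries the iron-sulfur cluster nearest to ubiquinone, at 178%, Uqcrc2, a core protein of complex III, at 172%, and Ndufs1, the largest subunit of complex I, at 169%. The ranges of these members over the lines overlapped. Ndufb2 was lowest, at 66.1%, followed by Atp5l at 85.9% and Atp5sl at 94.1%. In the METTL3 line, Ndufb2 fell from 31.9% and 44.0% at 0 min (replicates 1 and 2) to 20.9% and 32.9% at 90 min and 19.9% and 26.0% at 180 min in Ctrl. These were also the 3 members with the lowest level per kb, and Ndufb2 is overlapped on the same strand by Gm42420 and on the opposite strand by Braf and Gm16272.

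Depletion was then compared in read counts, 6 dTAG against 6 Ctrl libraries per line with chase time in the model (edgeR quasi-likelihood F test, Benjamini-Hochberg adjusted p over all genes tested, called under 0.05). The members called lower were Sdhb, Ndufv1 and Ndufb10 in the METTL3 line and 17 genes led by Sdhb and Ndufv2 in the ZCCHC8 line, where Ndufa7 and Cox7a2l were the most increased of 5. For METTL3 0 members rose and 3 fell, where 11.3% of 14413 genes rose and 8.8% fell. For YTHDC1 0 rose and 0 fell, where 2.48% and 2.77% of 14199 genes did. In that line 1 member and 2651 genes had an unadjusted p under 0.05 in edgeR. DESeq2 called 1 member lower there, where 3.56% of genes rose and 4.58% fell. For ZCCHC8 5 rose and 17 fell, where 20.1% and 19.5% of 13962 genes did, so the share of members that fell (23.6%) was near that of all genes. The members' median log2 fold change was −0.08, −0.01 and −0.05, and that of all genes 0.01, 0.01 and 0.00.

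Sdhb, the iron-sulfur subunit of succinate dehydrogenase that passes electrons from succinate towards ubiquinone (chromosome 4, 140961203 to 140979193, plus strand, mm10, 8 exons), was the only member called lower in both the METTL3 and the ZCCHC8 line. With METTL3 tagged it lay at 87.0, 102 and 124 CPM (lowest, median and highest of 6) in Ctrl and at 54.6, 65.5 and 78.3 CPM in dTAG. With ZCCHC8 tagged it lay at 79.1, 99.7 and 110 CPM in Ctrl and at 56.8, 67.8 and 76.7 CPM in dTAG. The arms did not overlap in either line, and dTAG was lower in 6 of 6 pairs of libraries. By edgeR this was −0.65 on the log2 scale (SE 0.10, adjusted p 0.00162) for METTL3 and −0.52 (SE 0.047, adjusted p 2.35e-09) for ZCCHC8. With YTHDC1 tagged, Ctrl libraries lay at 93.0, 114 and 160 CPM and dTAG libraries at 78.0, 95.9 and 121 CPM, which overlap, with −0.30 by edgeR (SE 0.084, adjusted p 0.0593) and dTAG below Ctrl in 6 of 6 pairs. With the replicate number as a block the adjusted p of the YTHDC1 line was 0.000419, and by DESeq2 it was 0.0188.

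The other members called with METTL3 targeted belong to complex I. Ndufv1, the flavoprotein that binds NADH, lay at 118, 132 and 183 CPM in Ctrl and at 86.1, 105 and 121 CPM in dTAG, which was −0.42 in log2 (edgeR, SE 0.12, adjusted p 0.0329, 6 of 6 pairs). Ndufb10, an accessory subunit of the membrane arm, lay at 94.9, 107 and 116 CPM in Ctrl and at 69.2, 80.0 and 93.8 CPM in dTAG, with −0.35 (SE 0.094, adjusted p 0.0219). The arms overlapped for Ndufv1 and not for Ndufb10. The complex medians were −0.14 for complex I, −0.18 for complex II, −0.03 for complex III, 0.06 for complex IV and −0.10 for complex V.

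The METTL3 result depended strongly on the pairing of replicates. With the replicate number as a block, 2 members rose and 17 fell (2.78% and 23.6%), where 24.4% and 24.1% of all genes did, so the share that fell was that of all genes. Those that fell included Ndufa11 (−0.64), Ndufa8 (−0.48), Ndufs8 (−0.43), Atp5g1 (−0.36), Ndufs7 (−0.34), Uqcrc2 (−0.30) and Atp5f1 (−0.29), while Uqcrfs1 (0.47) and Uqcrq (0.24) rose. With the 3 chase libraries of a replicate and arm summed, edgeR called 0 members and 0 of 15895 genes. In that fit 1 member and 1433 genes had an unadjusted p under 0.05, and Sdhb was at −0.66 (adjusted p 0.536). Taken alone, replicate 1 gave 1 higher and 22 lower with a median of −0.15, where 21.8% and 18.3% of all genes were called, and replicate 2 gave 10 higher and 9 lower with a median of 0.03, where 25.6% and 26.7% were. Ndufa11, an accessory subunit at the membrane arm, lay at 86.3, 95.2 and 109 CPM in Ctrl and at 36.6, 66.0 and 90.0 CPM in dTAG, and its change was −1.08 in replicate 1 and −0.19 in replicate 2. Uqcrfs1 lay at 93.8, 133 and 195 CPM in Ctrl and at 127, 189 and 251 CPM in dTAG, higher in 6 of 6 pairs, with edgeR adjusted p 0.201 without and 5.1e-05 with the block. Replicate 1 was higher than replicate 2 at every time in both arms. For YTHDC1 the block gave 2 higher (Uqcrfs1 0.15 and Cox7a2l 0.19) and 7 lower, below the 13.2% and 14.1% of all genes, with Sdhb at −0.30, Ndufv3 at −0.26 and Ndufs1 at −0.22 the lowest. The summed libraries of that line gave 0 calls among 15513 genes by edgeR, with 0 members and 696 genes at an unadjusted p under 0.05.

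**Figure D2:**
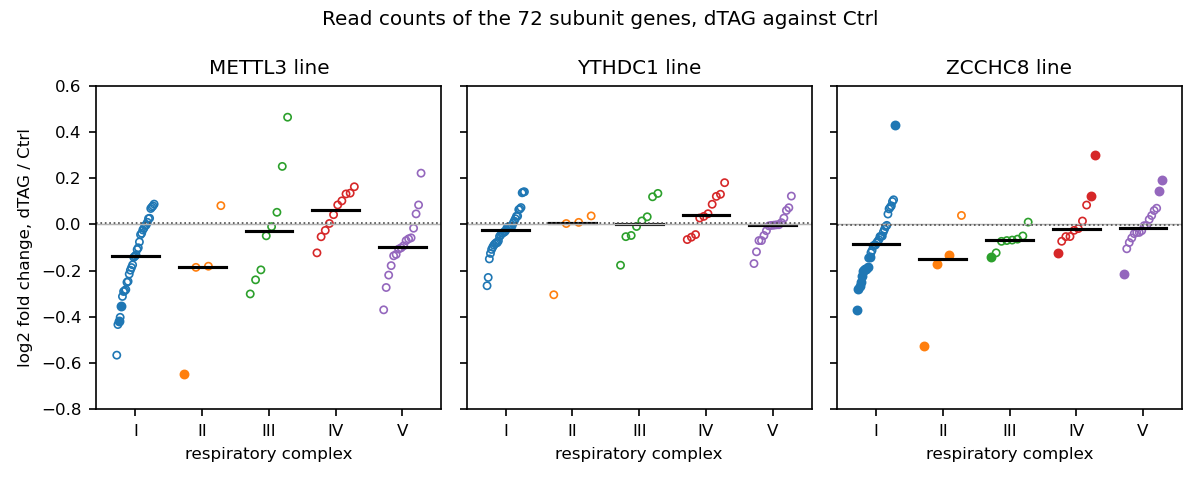
Log2 fold change in read counts, dTAG against Ctrl, for the 72 members grouped by complex, in 1 panel per line (filled points are called by edgeR at adjusted p under 0.05, thick bars are complex medians, the dotted line is the median of all genes tested). Sdhb is the lowest filled point in the METTL3 line (−0.65) and the ZCCHC8 line (−0.52), and Ndufa7 the highest in the ZCCHC8 line (0.43).

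With ZCCHC8 targeted, 12 of 34 members of complex I were called, 1 higher and 11 lower (2.94% and 32.4%). Of all genes 20.1% rose and 19.5% fell. Ndufv2 (chromosome 17, 66078638 to 66101559, minus strand) lay at 101, 126 and 137 CPM in Ctrl and at 78.4, 95.2 and 109 CPM in dTAG, which was −0.37 in log2 (edgeR, SE 0.045, adjusted p 5.08e-07, 6 of 6 pairs). Ndufa8, an accessory subunit, fell from 66.7, 76.2 and 82.5 CPM to 50.4, 60.9 and 75.4 CPM, by −0.28 (SE 0.058, adjusted p 0.000469). Their ranges overlapped, whereas each pair of libraries of the same replicate and time had dTAG lower. Ndufa7, an accessory subunit of the NADH-oxidising arm (chromosome 17, 33824572 to 33838317, plus strand), went the other way, from 68.3, 82.9 and 92.3 CPM in Ctrl to 101, 114 and 119 CPM in dTAG, without overlap, which was 0.43 in log2 (edgeR, SE 0.059, adjusted p 2.71e-06). The other members that fell were Ndufa5, Ndufb11, Ndufb2, Ndufb6, Ndufb9, Ndufs3, Ndufs4, Ndufs6 and Ndufv3, with log2 fold changes from −0.27 to −0.14.

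Complex II fell in 3 of 4 members in the ZCCHC8 line, where 19.5% of all genes fell. Beside Sdhb, Sdha, the flavoprotein that oxidises succinate, lay at 318, 393 and 423 CPM in Ctrl and at 292, 354 and 377 CPM in dTAG, with −0.17 (SE 0.046, edgeR adjusted p 0.00424), and Sdhd was at −0.13 (adjusted p 0.0450). In complex III 1 of 8 members fell, Uqcrb (−0.14, SE 0.047, adjusted p 0.0196), a small subunit at the ubiquinone site. In complex IV Cox5a, a structural subunit, fell (−0.13, SE 0.050, adjusted p 0.0480), while Cox7c (0.12, SE 0.046, adjusted p 0.0347) and Cox7a2l rose.

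Cox7a2l (chromosome 17, 83501918 to 83517330, minus strand, 4 exons) lay at 61.3, 63.9 and 66.3 CPM in Ctrl and at 69.8, 80.6 and 84.1 CPM in dTAG of the ZCCHC8 line, without overlap, which was 0.30 in log2 (edgeR, SE 0.051, adjusted p 4.47e-05, 6 of 6 pairs). Of the members grouped with complex V by name, Atp5c1 fell (−0.22, SE 0.043, edgeR adjusted p 0.000278). Atp5sl (0.19, SE 0.055, adjusted p 0.00728) and Atp5g2, which encodes the c subunit of the rotor (0.15, SE 0.049, adjusted p 0.0217), rose. Without Ndufa4, Cox7a2l and Atp5sl, 3 of 69 members rose and 17 fell in this line. Of complexes III, IV and V, 12.5%, 10% and 6.25% of members fell, below the 19.5% of all genes. In the same order 0%, 20% and 12.5% rose, where 20.1% of all genes did. With the block 5 members rose and 20 fell, where 23.1% and 22.8% of all genes did. By replicate 1 only, 2 rose and 9 fell (12.7% and 11.8% of all genes), and by replicate 2 only, 5 and 13 (18.6% and 18.4%). When the 3 chase libraries of a replicate and arm were summed, 2 rose and 9 fell, where 13.3% and 11.4% of all genes did.

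**Figure D3:**
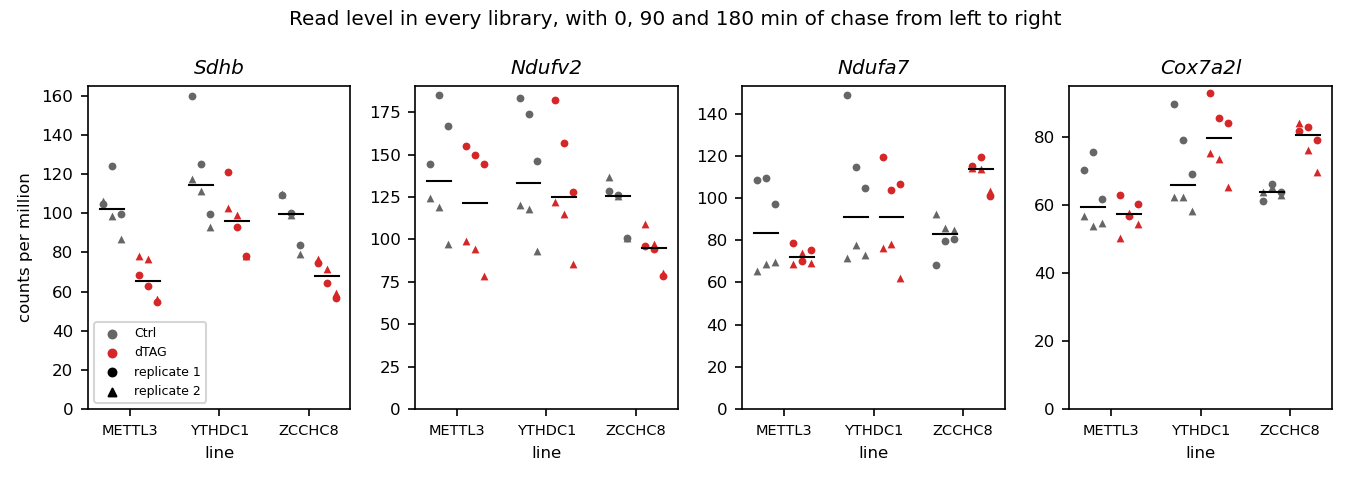
CPM in each of the 36 libraries for Sdhb, Ndufv2, Ndufa7 and Cox7a2l, by line, with 0, 90 and 180 min from left to right (grey Ctrl, red dTAG, circles replicate 1, triangles replicate 2, bars medians). In the ZCCHC8 line the 6 dTAG libraries of Ndufa7 (101 to 119 CPM) and Cox7a2l (69.8 to 84.1 CPM) all lie above Ctrl, and those of Sdhb (56.8 to 76.7 CPM) all lie below it.

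Of 10 core subunits chosen whatever their change, Ndufv1, Sdha, Sdhb and Cox5a were called in at least 1 line, as given above, and with the block only Uqcrfs1 (METTL3 and YTHDC1 lines), Uqcrc1 and Atp5a1 (METTL3 line) and Ndufs1 (YTHDC1 line). Log2 fold changes in the METTL3, YTHDC1 and ZCCHC8 lines were 0.03, −0.23 and −0.07 for Ndufs1, −0.24, −0.05 and −0.06 for Uqcrc1, 0.16, 0.13 and −0.05 for Cox5b, −0.22, 0.00 and −0.03 for Atp5a1, and −0.06, −0.01 and 0.07 for Atp5b. Without the block none of these had an edgeR adjusted p under 0.05 in any line, and the lowest was 0.175. Of the 3 X-linked members, Ndufb11 fell in the ZCCHC8 line (−0.22, SE 0.057, edgeR adjusted p 0.00295), from 76.1, 83.2 and 94.6 CPM in Ctrl to 64.3, 72.5 and 83.0 CPM in dTAG. Ndufa1 was at −0.04, −0.04 and −0.05 and Cox7b at −0.03, 0.04 and −0.07 in the 3 lines, not called. The libraries were not split by allele here, and Xist was induced in both arms.

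Related gene groups were counted in the same fits, and no difference from the members or from all genes was tested. For METTL3, 11.3% of all genes rose and 8.8% fell. With METTL3 targeted, assembly factors of the respiratory complexes rose in 11 of 46 and fell in 0, led by Ndufaf1 (1.66, SE 0.21, edgeR adjusted p 0.000487), an assembly factor of complex I, Coa7 (1.27) and Tmem70 (1.02). Mitochondrial ribosomal proteins rose in 19 of 78 and fell in 1, led by Mrpl43 (1.53), Mrpl46 (1.31) and Mrps2 (0.97). Among 5 subunits outside the name rule, Cyc1 (−0.37), cytochrome c1, and Cyct (−0.57), the testis form of cytochrome c, fell. Regulators of respiratory genes rose in 2 of 12 (Gabpa 0.36, Nrf1 0.29) and fell in 1 (Gabpb1 −0.49). Cytosolic ribosomal proteins rose and fell in 1 each of 84 (Rpl10l 0.75, Rpl7a −0.33), 1 of 17 glycolytic enzymes rose (Aldoc 0.56) and 1 of 13 tricarboxylic acid cycle enzymes fell (Idh3g −0.43). The 3 medians of assembly factors, mitochondrial ribosomal proteins and members were 0.13, 0.15 and −0.08.

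With YTHDC1 targeted, 1 gene of these groups was called, Mrpl41 (−0.46, SE 0.071, edgeR adjusted p 0.00411), where 2.48% of all genes rose and 2.77% fell. With ZCCHC8 targeted, 20.1% of all genes rose and 19.5% fell, and the group counts stand beside these shares. Cytosolic ribosomal proteins rose in 45 of 84 and fell in 1 (median 0.12), with Rpl10a at 0.30, Rps28 at 0.28 and Rpl7l1 at 0.26. Tricarboxylic acid cycle enzymes, to which succinate dehydrogenase also belongs by function, fell in 8 of 13 and rose in 0 (median −0.18), with Idh3a at −0.44, Fh1 at −0.34 and Ogdh at −0.25. Mitochondrial ribosomal proteins rose in 7 and fell in 23 of 78 (Mrpl36 0.71, Mrpl14 −0.61, Mrpl17 0.41), and assembly factors rose in 10 and fell in 7 of 46 (Lyrm7 −1.21, Ndufaf3 0.74, Ndufaf8 0.58). Regulators rose in 3 and fell in 4 of 12 (Esrra −0.65, Ppargc1b −0.63, Gabpb1 −0.40), glycolytic enzymes rose in 2 and fell in 3 of 17 (Aldoc 0.66, Ldha −0.27, Hk2 0.21), and 1 of 5 subunits outside the rule fell (Ndufab1 −0.26). Of the mES cell markers 0 of 8 changed in the METTL3 and YTHDC1 lines and 3 rose in the ZCCHC8 line (Tdgf1 0.24, Nanog 0.20, Dppa4 0.18), and of primitive endoderm markers Gata6 rose in the METTL3 line (1.10) and Sox17 in the ZCCHC8 line (0.88), at summed levels of at most 5.71 CPM. None of the 2 feeder markers tested was called in any line.

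The chase itself was compared next, as 4 libraries at 180 min against 4 at 0 min within the same fits. By their medians, members lost reads over the chase relative to other genes in the YTHDC1 and ZCCHC8 lines. For YTHDC1 0 rose and 11 fell (15.3%), where 23.0% of all genes rose and 18% fell. The share of members that fell was thus below that of all genes in this line. For ZCCHC8 0 rose and 41 fell (56.9%), where 30.7% and 29.9% did. The members' medians were −0.24 and −0.15, with 71 and 69 of 72 members below 0, and the all-gene medians −0.01 in both lines. For METTL3 0 members were called in either direction by edgeR, where 10.3% of genes rose and 5.84% fell. In that line 2 members and 4587 genes had an unadjusted p under 0.05, and the median was −0.05 for members and all genes alike. With the replicate block the METTL3 line gave 3 higher (Ndufb2, Ndufb6 and Atp5l) and 7 lower (Ndufa8, Ndufs1, Ndufs7, Ndufs8, Sdha, Sdhb and Atp5sl), below the 23.3% and 23.9% of all genes, and the YTHDC1 line gave 58 lower (80.6%), where 33.4% of all genes fell. Read counts are shares of a library, so these are changes relative to the other RNA. Exposure to doxycycline was also longer at 180 min, so chase time and the time of Xist induction cannot be told apart here.

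All 11 genes called in the YTHDC1 line were also among the 41 of the ZCCHC8 line, 8 of them in complex I (among them Ndufs7, Ndufs1, Ndufa8, Ndufa6, Ndufs8, Ndufb10 and Ndufs6), 2 in complex II (Sdhb and Sdha) and 1 in complex III (Uqcrq). The lines share no libraries. In the ZCCHC8 line 56.9% of all members were called lower, and the overlap of calls over all genes was not counted. Across the 72 members the changes of the lines had a Pearson r of 0.75 and a Spearman rho of 0.64, and across all genes tested in both lines r was 0.90, without p since genes are not independent. For ZCCHC8 18 of 34 members of complex I fell, 4 of 4 of complex II and 6 of 8 of complex III. In complex IV 4 of 10 fell and in complex V 9 of 16, where 29.9% of all genes fell.

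Ndufs7 (chromosome 10, 80249121 to 80256794, plus strand) fell furthest in the YTHDC1 line. It lay at 52.5 and 37.8 CPM in Ctrl and 38.3 and 39.7 in dTAG (replicates 1 and 2) at 0 min, and at 19.2 and 24.6 in Ctrl and 24.2 and 25.4 in dTAG at 180 min, which was −0.85 in log2 by edgeR (SE 0.16, adjusted p 0.00153). For ZCCHC8 it lay at 41.4, 42.5, 40.9 and 40.0 CPM at 0 min and at 30.9, 28.9, 27.7 and 30.0 at 180 min in the same order, or −0.49 by edgeR (SE 0.074, adjusted p 4.02e-06). The times did not overlap in either line.

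Ndufs1, with an exon count of 19 the most exon-rich of the named members (chromosome 1, 63143596 to 63176833, minus strand), lay at 297, 211, 259 and 189 CPM at 0 min and at 209, 144, 170 and 128 CPM at 180 min in the YTHDC1 line, lower in each of the 4 pairs (edgeR −0.56, SE 0.19, adjusted p 0.0345). For ZCCHC8 it went from 225, 188, 190 and 189 CPM to 148, 124, 146 and 128 CPM, without overlap (−0.53, SE 0.067, adjusted p 3.27e-07). Eef1b2 and 2 noncoding genes overlap it on the opposite strand. Sdhb went from 160, 118, 121 and 102 CPM to 99.5, 93.0, 78.3 and 78.0 CPM in the YTHDC1 line (−0.52, SE 0.10, edgeR adjusted p 0.00207) and from 110, 110, 74.6 and 76.7 CPM to 83.6, 79.1, 56.8 and 59.2 CPM in the ZCCHC8 line (−0.41, SE 0.057, adjusted p 1.42e-06). Both arms fell over the chase in both lines. Uqcrfs1 fell in the ZCCHC8 line from 128, 129, 122 and 124 CPM to between 89.6 and 96.2 CPM (−0.43, SE 0.053, adjusted p 2.28e-07).

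The extent of the time effect varied with the libraries used. Of the members in the YTHDC1 line, 50 fell by replicate 1 only and 53 by replicate 2 only, where 26.2% and 30.8% of all genes fell. In Ctrl libraries alone edgeR called 0 members of that line, where 0.341% of all genes fell. In that fit 6 members and 3723 of 14083 genes had an unadjusted p under 0.05. For ZCCHC8 18 members fell by replicate 1 only, 52 by replicate 2 only and 14 in Ctrl libraries alone. Of all genes 21.7%, 27.3% and 21.5% fell there. For METTL3 replicate 1 gave 2 higher and 4 lower (18.2% and 13.6% of all genes), and replicate 2 gave 2 higher and 16 lower (26.4% and 26.1%). The listed length of a gene ran with its change over the 7011 genes (Pearson r 0.19, 0.36 and 0.29 in the METTL3, YTHDC1 and ZCCHC8 lines), and within the members it did not (−0.04, 0.08 and 0.06), as a description. Its part in the members' fall was not tested.

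**Figure D4:**
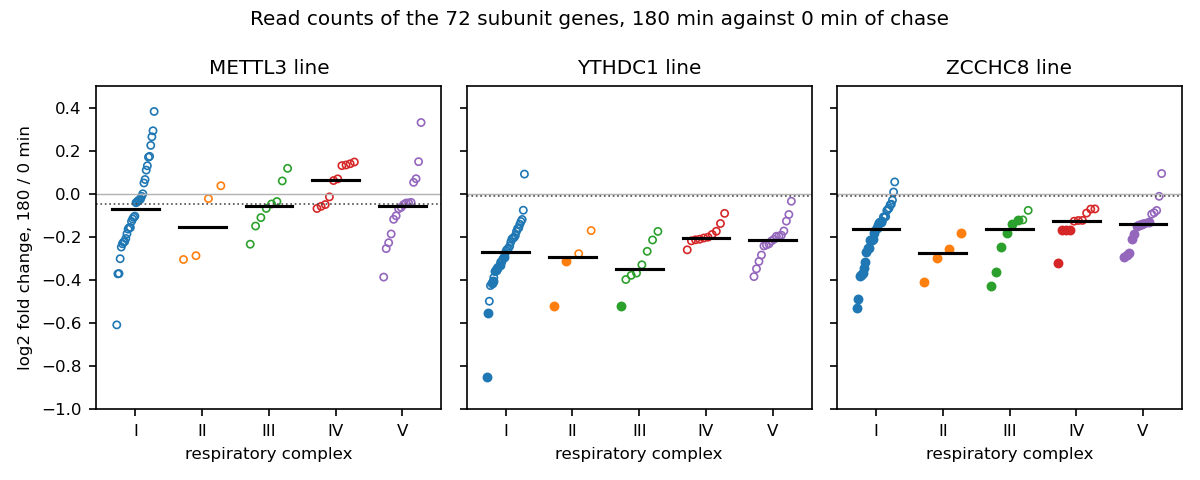
Log2 change in read counts, 180 min against 0 min of chase, for the 72 members by complex, in 1 panel per line (filled points are called by edgeR at adjusted p under 0.05, thick bars are complex medians, the dotted line is the median of all genes tested). In the YTHDC1 and ZCCHC8 lines 71 and 69 of 72 points lie below 0, and in the METTL3 line no point is filled.

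Related gene groups are given for the same comparison, beside the shares of all genes above. For YTHDC1, mitochondrial ribosomal proteins rose in 3 and fell in 30 of 78 (median −0.38; Mrpl55 −0.79, Mrpl2 −0.78), tricarboxylic acid cycle enzymes fell in 5 of 13 (Idh3a −0.53, Dld −0.52), glycolytic enzymes in 6 of 17 (Pfkp −1.04, Tpi1 −0.60), cytosolic ribosomal proteins in 6 of 84 (Rpl39l −0.70), and subunits outside the rule in 3 of 5 (Cyct −0.65, Cyc1 −0.55, Cycs −0.41). Assembly factors rose in 2 and fell in 9 of 46 (Ttc19 0.80, Ndufaf3 −0.73). For ZCCHC8 the counts were 3 higher and 61 lower of the mitochondrial ribosomal proteins, 0 and 12 of the tricarboxylic acid cycle enzymes, 1 and 10 of the glycolytic enzymes, 0 and 47 of the cytosolic ribosomal proteins, 5 and 18 of the assembly factors and 0 and 4 of the subunits outside the rule. For METTL3 they were 0 and 5, 0 and 2, 0 and 2, 0 and 0, 1 and 1, and 0 and 0 in the same order. Regulators of respiratory genes gave, of 12, 3 higher and 0 lower for METTL3, 4 and 0 for YTHDC1 and 4 and 2 for ZCCHC8. Gabpb1, a subunit of the ETS-family factor GABP (NRF2), rose by 0.85, 0.84 and 0.91, and Yy1 by 0.61, 0.53 and 0.55. Of the 8 mES cell markers 1 rose and 1 fell in the METTL3, 1 and 3 in the YTHDC1 and 3 and 4 in the ZCCHC8 line, Sox2 (0.74, 0.49 and 0.64) rising and Dppa4 (−0.56, −0.78 and −0.71) falling in each, and their part in the members' change was not tested. Of the 2 feeder and 3 endoderm markers tested none was called.

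The new-to-total ratio was compared between arms next, with limma on log2 of the ratio and chase time in the model. In the METTL3 line the ratio fell over all genes, by a median of −0.15, and 2.85% of 8289 genes rose and 24.6% fell. The members had a median of −0.06, and 2 rose and 10 fell. With each library centred on its all-gene median, which moves the all-gene median to 0.07, 26 members rose and 2 fell (Uqcrfs1 −0.54 and Atp5sl −0.25), where 22.6% and 9.92% of all genes did, so the direction of the members as a group depends on the scale and only those genes fell on both. For YTHDC1 2 rose and 0 fell, where 0.454% and 0.193% of 8820 genes did, and for ZCCHC8 1 rose and 1 fell, where 0.496% and 0.841% of 7251 genes did. The members' medians were 0.06 and −0.02, against −0.03 and −0.04 for all genes. Without Ndufa4, Cox7a2l and Atp5sl, 2 of 69 members rose and 9 fell in the METTL3 line, and 1 rose and 0 fell in the ZCCHC8 line.

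Uqcrfs1 (chromosome 13, 30540308 to 30545362, minus strand, 2 exons) changed most in the METTL3 line. Its ratio was 29.6% and 32.2% in Ctrl at 0 min (replicates 1 and 2), 35.3% and 42.0% at 90 min and 39.8% and 40.6% at 180 min. The dTAG libraries had 21.3% and 17.5%, then 19.6% and 22.9%, then 22.4% and 26.6%. The arms did not overlap, with a log2 difference of −0.75 (SE 0.092, limma adjusted p 5.6e-06, the same way in 6 of 6 pairs). By T-to-C rate it was −0.65 (limma adjusted p 0.00332), the only member called by that measure. Its read count was higher in dTAG in the same 6 pairs, as given above.

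Atp5sl (chromosome 7, 25619414 to 25625551, plus strand, 6 exons) had ratios of 55.6% and 64.7%, 59.7% and 63.5%, and 56.8% and 55.9% in Ctrl and of 44.9% and 43.9%, 36.2% and 47.3%, and 38.6% and 47.6% in dTAG at 0, 90 and 180 min of the METTL3 line. The arms did not overlap, with −0.47 (SE 0.093, limma adjusted p 0.000815). The other members that fell were accessory subunits of complex I (Ndufa2 −0.42, Ndufa3 −0.37, Ndufb6 −0.34, Ndufa13 −0.34 and Ndufa12 −0.26), Uqcr10 (−0.40) and Uqcrq (−0.37) of complex III and Cox8a (−0.32) of complex IV. Cox8a was at 15.7% and 17.8%, 17.1% and 21.2%, and 18.6% and 21.9% in Ctrl and at 13.4% and 13.4%, 14.2% and 16.9%, and 15.4% and 16.4% in dTAG.

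Ndufv2 and Uqcrc2 rose in the METTL3 line. Ndufv2 had ratios of 20.5% and 16.6%, 20.1% and 19.2%, and 26.0% and 27.7% in Ctrl and of 22.9% and 19.0%, 26.8% and 26.1%, and 34.5% and 34.1% in dTAG, a log2 difference of 0.32 (SE 0.089, limma adjusted p 0.0110, 6 of 6 pairs). Uqcrc2 was at 0.26 (SE 0.092, adjusted p 0.0380). The members of complex II with the smallest p were not called (Sdhd −0.19, Sdha 0.12), nor were Cox7c (−0.15) and Atp5h (−0.22). With the block 3 rose and 14 fell, where 4.09% and 33.2% of all genes did. With 1 replicate alone 0 rose and 2 (replicate 1) or 6 (replicate 2) fell, where 7.74% and 6.63% of all genes fell.

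**Figure D5:**
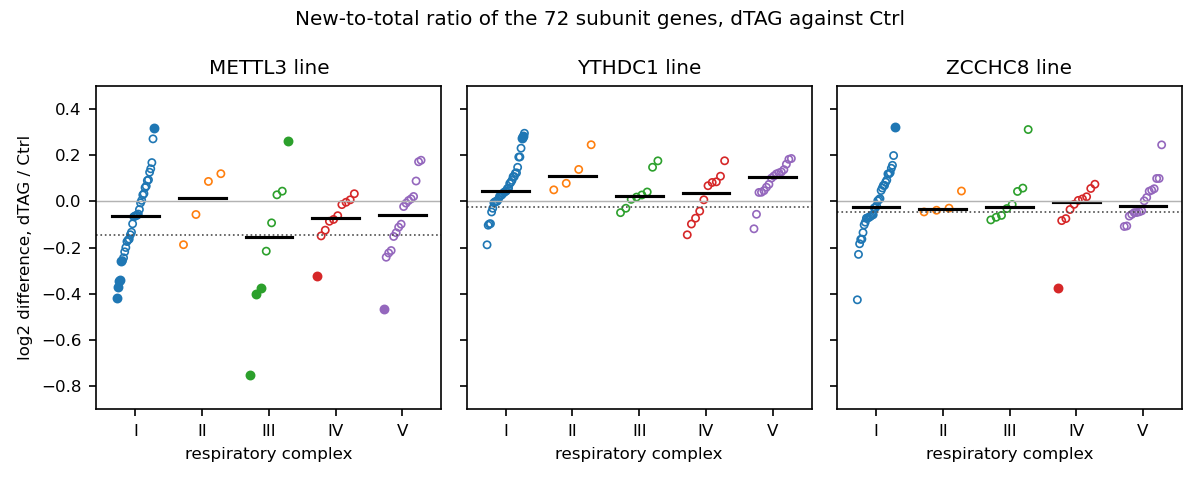
Log2 difference in new-to-total ratio, dTAG against Ctrl, for the 72 members by complex, in 1 panel per line (filled points are called by limma at adjusted p under 0.05, thick bars are complex medians, the dotted line is the median of all genes tested). Uqcrfs1 (−0.75) and Atp5sl (−0.47) are the lowest points in the METTL3 line, and the complex medians there lie above the all-gene median of −0.15 except that of complex III.

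In the YTHDC1 line the members called were of complex I. Ndufs1 had ratios of 16.1% and 16.9%, 19.7% and 22.1%, and 25.9% and 29.1% in Ctrl and of 19.8% and 21.1%, 24.7% and 26.4%, and 32.3% and 33.3% in dTAG, with 0.29 (SE 0.054, limma adjusted p 0.0306). Ndufb3, an accessory subunit of the membrane arm, was at 0.27 (SE 0.057, adjusted p 0.0433). Both were higher in 6 of 6 pairs. The members of the other complexes with the smallest p lay between −0.14 (Cox7a2l) and 0.25 (Sdhc), with Sdha 0.14, Uqcrb 0.18, Uqcrc2 0.15, Cox7c 0.18, Atp5f1 0.18 and Atp5e 0.19, none called. By T-to-C rate 0 members were called by limma in this line, where 0.0113% of all genes rose and 0.0454% fell. By that rate 6 members and 1146 of 8820 genes had an unadjusted p under 0.05. For the ratio 16 members and 1225 genes had one.

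In the ZCCHC8 line Cox7a2l had ratios of 25.5% and 27.0%, 39.5% and 34.1%, and 40.4% and 40.8% in Ctrl and of 21.4% and 22.6%, 27.1% and 26.1%, and 27.8% and 33.5% in dTAG. It was lower in dTAG in each of 6 pairs, with −0.38 (SE 0.062, limma adjusted p 0.0107), and by T-to-C rate −0.52 (adjusted p 0.00645), while its read count rose. Ndufv3, a small accessory subunit of the NADH-oxidising arm, had 24.1% and 23.7%, 27.2% and 22.7%, and 27.4% and 29.4% in Ctrl and 31.8% and 31.9%, 30.3% and 33.8%, and 32.2% and 32.7% in dTAG. The arms did not overlap, with 0.32 (SE 0.059, adjusted p 0.0199). Of the others with the smallest p in their complex, Ndufa1 was at −0.43 (SE 0.12, adjusted p 0.0790) and Uqcrq at 0.31 (SE 0.076, adjusted p 0.0602). Sdhd (−0.04), Sdhb (0.04), Uqcrfs1 (−0.07), Cox5b (−0.08), Atp5k (0.24) and Atp5j2 (0.10) had adjusted p above 0.2. No member was called in replicate 1 alone or replicate 2 alone in the YTHDC1 or ZCCHC8 line, and few or no genes of any kind were. For YTHDC1 0.626% of all genes rose and 0.0447% fell in replicate 1 alone, and 0% were called in replicate 2 alone. For ZCCHC8 0% were called in replicate 1 alone, and 0.115% rose and 0.14% fell in replicate 2 alone.

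In the METTL3 line, 2.85% of all genes rose in ratio and 24.6% fell. Among the related groups, the ratio fell there in 21 of 38 assembly factors (median −0.28, with Ndufaf1 −1.12, Coa7 −1.10, Coa3 −1.02). It fell in 41 of 77 mitochondrial ribosomal proteins, with 2 higher (median −0.27, with Mrpl46 −1.28, Mrpl43 −1.08). Cytosolic ribosomal proteins fell in 2 of 81 (Rpl10l −0.85, Rpl36al −0.39), tricarboxylic acid cycle enzymes in 2 of 13 (Ogdh −0.65, Dlst −0.29) and regulators in 2 of 9 (Tfb1m −0.40, Gabpa −0.37), and glycolytic enzymes rose in 3 and fell in 1 of 16. For YTHDC1 0 genes of these groups were called by limma. For ZCCHC8 Mrpl58 rose (0.32) and Rpl39 (−0.37) and Aldoa (−0.28) fell. Of mES cell markers, Pou5f1 (0.35) rose and Dppa4 (−0.26) fell in ratio with METTL3 targeted.

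Loss of label was tested as the difference between arms in the slope of log2 ratio per h of chase. No member was called by limma in any line. Of all genes 0.362%, 0.0% and 0.0% were called. Unadjusted p lay under 0.05 for 2 members and 590 of 8289 genes with METTL3 tagged. With YTHDC1 tagged it did for 0 members and 173 of 8820 genes, and with ZCCHC8 tagged for 5 members and 129 of 7251 genes. The members' median slope difference was −0.02, 0.00 and −0.02 per h, and the extremes were Ndufc2 at −0.24 and Uqcr11, a small subunit of complex III, at 0.20, both in the ZCCHC8 line. Ndufc2 rose from 8.95% and 11.2% at 0 min to 22.7% and 27.8% at 180 min in Ctrl and from 13.6% and 14.9% to 20.2% and 23.7% in dTAG. Since most ratios rose over the chase, the slope is not a decay rate.

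Whether a member responded differently in different lines was tested by interaction terms in 1 edgeR fit of the 36 libraries. METTL3 minus YTHDC1 gave 0 members higher and 4 lower, where 10.3% of 15105 genes were higher and 10.3% lower. The 4 were Ndufa11 (−0.65, SE 0.22, adjusted p 0.0349), Ndufa8 (−0.60, SE 0.18, adjusted p 0.0174), Sdhb (−0.37, SE 0.11, adjusted p 0.0135) and Ndufb10 (−0.30, SE 0.10, adjusted p 0.0353). ZCCHC8 minus YTHDC1 gave 0 higher and 1 lower, where 7.2% and 7.2% of genes were, namely Ndufa12, an accessory subunit of complex I (−0.33, SE 0.11, edgeR adjusted p 0.0446). Sdhb was at −0.28 (SE 0.11, adjusted p 0.0838), so its change was not shown to differ between these lines.

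ZCCHC8 minus METTL3 gave 3 higher and 1 lower, where 11.1% and 12.6% of genes were. Ndufb10 was higher by 0.42 (SE 0.10, edgeR adjusted p 0.00287), with dTAG libraries of the ZCCHC8 line at 96.5, 115 and 141 CPM against 89.3, 112 and 124 CPM in Ctrl. Ndufa7 was higher by 0.65 (SE 0.24, adjusted p 0.0444) and Cox7a2l by 0.39 (SE 0.14, adjusted p 0.0425), and both had risen in the ZCCHC8 line. Uqcrq, a subunit of complex III, was lower by −0.41 (SE 0.15, adjusted p 0.0469), with −0.21 by replicate 1 and −0.62 by replicate 2. Of feeder markers, Dcn was higher in the same pair (1.69, SE 0.52, edgeR adjusted p 0.0169), at the summed levels given above. With the replicate block within lines the counts were 1 higher and 15 lower for METTL3 minus YTHDC1 (19.5% and 23.3% of all genes), 1 and 13 for ZCCHC8 minus YTHDC1 (13.7% and 18.6%), and 11 and 10 for ZCCHC8 minus METTL3 (21.2% and 22.3%).

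Ctrl levels were compared between lines over the 18 Ctrl libraries (edgeR), where clone and batch cannot be told apart. The METTL3 against the YTHDC1 line gave 0 and 0, where 1.54% and 0.897% of 14267 genes were higher and lower. At an unadjusted p under 0.05 there were 10 members and 2351 genes. The ZCCHC8 against the YTHDC1 line gave 0 higher and 1 lower, where 4.99% and 8.6% were, and the gene was Sdhb (−0.28, SE 0.088, adjusted p 0.0435). The ZCCHC8 against the METTL3 line gave 13 higher and 1 lower, where 13.0% and 17.7% were, while the members' median was −0.13 with 46 of 72 below 0. Of markers, the feeder gene Col1a1 was higher in the ZCCHC8 line than in the METTL3 line (1.01) and the YTHDC1 line (1.17), and the mES cell genes Klf4 (0.76) and Esrrb (0.47) than in the METTL3 line, and their part in the members' levels was not tested. The largest was Atp5d, the delta subunit of the ATP synthase, at 0.86 (SE 0.23, edgeR adjusted p 0.0130), with 184, 190 and 206 CPM in the ZCCHC8 line and 55.9, 114 and 144 CPM in the METTL3 line. Cox8a was at 0.55 and Cox6a1 at 0.52, and the 1 lower was Atp5j, a stalk subunit (−0.49, SE 0.14, adjusted p 0.0188), with 66.5, 71.1 and 76.3 CPM against a median of 87.6 and a highest of 135 CPM. The other higher members were Ndufb7, Uqcr11, Ndufs8, Ndufa11, Ndufa13, Atp5g2, Ndufa3, Cox5b, Ndufa8 and Uqcrc1, from 0.29 to 0.46. The replicates set these counts to a large degree. The ZCCHC8 against the METTL3 line gave 10 higher and 40 lower by replicate 1 (23.2% and 23.3% of all genes) and 40 higher and 3 lower by replicate 2 (17.9% and 19.6%). Against the YTHDC1 line the numbers were 2 and 46 (19.1% and 20.5%), then 25 and 3 (14.2% and 16.1%). The METTL3 against the YTHDC1 line gave 0 and 0 (0.727% and 0.35%), then 0 and 20 (7.48% and 7.53%).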

How the data were processed

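The authors removed ribosomal RNA reads, mapped what was left to mm10 by STAR 2.5.2b (end to end, unique hits, few mismatches allowed), took gene models from UCSC and ran GRAND-SLAM on 6 tables of 6 libraries, 1 per line and replicate. The deposited counts are raw reads per gene. The deposited new-to-total ratio is a fraction, given by GRAND-SLAM as the maximum (MAP) and as the mean of its posterior. The deposited conversion and coverage values are sums over reads. A limit on mismatches can remove strongly labelled reads. The version of GRAND-SLAM, the use of strand and gene filters are not given in the sources used here. Of the library columns 252 were used and 180 were not.

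Counts were tested with edgeR 4.0.16 (quasi-likelihood F test, robust, after filterByExpr and TMM), with DESeq2 1.42.0 as an alternative, and log2 ratios with limma 3.58.1 where every library of a line had 100 reads or more and a ratio no lower than 0.02, in R 4.3.3. P values were adjusted by Benjamini-Hochberg over all genes tested, with a threshold of 0.05. Scripts were tested on simulated data. The rest was done in Python 3.11.15 (matplotlib 3.10.9, scipy 1.17.1, pandas 2.3.3, numpy 2.4.6). The members and the gene lists were chosen with earlier results of these data known. From the list of cytosolic ribosomal proteins, Rps6k kinases and Rps19bp1, which are no ribosomal proteins, were left out after their values were seen.

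Groups and replicate numbers came from the labels. Per the study's methods, the wells of a replicate came from 1 batch of cells, and same-numbered libraries deviated together, with correlations of 0.662 to 0.960 in the METTL3, 0.671 to 0.901 in the YTHDC1 and 0.158 to 0.426 in the ZCCHC8 line (15 each), so results with the replicate as a block stand beside those they change. Replicates of a group differed by more than sampling noise (chi-square per degree of freedom 2.45 to 77.9). P values measure the spread between these libraries, not between independent cultures, since the libraries of a replicate came from 1 batch of cells. Each line had 2 replicates. With the chase libraries of a replicate and arm summed, 0 genes were called for dTAG-13 in the METTL3 and YTHDC1 lines. Depth sets only the counting error.

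Named members are, per line and complex, up to 2 in each direction with the largest called change that moved the same way in at least 5 of 6 pairs, 2 core subunits per complex, the X-linked members, the 2 per complex with the smallest p in the ratio test, the 3 highest and lowest ratios at 0 min, up to 3 per line pair and direction in the differences, and up to 3 per other list. Further members were named after their values were seen. Some genes are not reported here by name.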

Additional observations from a re-analysis of the deposited data

Results flagged for a closer look

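These members were singled out because their response to dTAG-13 in read counts differed between lines in the interaction test (edgeR, adjusted p under 0.05 over all genes), and no explanation was tested for any of them. Between the METTL3 and YTHDC1 lines, Ndufa11 differed by −0.65 on the log2 scale (SE 0.22), with −1.14 in replicate 1 alone and −0.24 in replicate 2 alone. Ndufa8 differed by −0.60 (SE 0.18) in the same pair, with −0.91 and −0.30 in the replicates. Ndufb10 differed by −0.30 (SE 0.10) and Sdhb by −0.37 (SE 0.11) in that pair. Between the ZCCHC8 and YTHDC1 lines, Ndufa12 differed by −0.33 (SE 0.11). Between the ZCCHC8 and METTL3 lines, Ndufa7 differed by 0.65 (SE 0.24), with 0.96 in replicate 1 alone and 0.26 in replicate 2 alone. Ndufb10 differed by 0.42 (SE 0.10), Cox7a2l by 0.395 (SE 0.14) and Uqcrq by −0.41 (SE 0.15) in that pair.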

How the results depend on the processing

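Values are members called. Shares of all genes called higher and lower stand in the Results above or in brackets here. For dTAG-13 in counts, the METTL3 line had 3, and 19 with the replicate block, 19 to 23 without 1 replicate and 0 with chase libraries summed. It had 1 without 0 min (2.75% and 2.22% of all genes) and 7 by DESeq2 (13.3% and 11.9%). The YTHDC1 line had 0, and 9 with the block and 1 by DESeq2 (3.56% and 4.58%). It had 13 without replicate 1 (11.5% and 13.5%) and 6 without replicate 2 (3.66% and 5.92%). The ZCCHC8 line had 22, and 11 to 18 without 1 replicate and 11 with chase libraries summed. For the chase, the METTL3 line had 0, and 10 with the block and 6 to 18 without 1 replicate. The YTHDC1 line had 11, and 58 with the block, 50 to 53 without 1 replicate and 0 in Ctrl only. The ZCCHC8 line had 41, and 18 to 52 without 1 replicate and 14 in Ctrl only. For the ratio, the METTL3 line had 12, and 28 centred, 1 by T-to-C rate (0.543% and 4.96% of all genes) and 2 to 6 without 1 replicate. The YTHDC1 line had 2, and 0 by T-to-C rate (0.0113% and 0.0454%), 0 with the 50-read filter (0.108% and 0.0492%) and 0 to 0 without 1 replicate. The ZCCHC8 line had 2, and 1 by T-to-C rate (0.0552% and 0.69%) and 0 to 0 without 1 replicate. Label loss in the METTL3 line gave 0, and 0 without replicate 1 (0.0334% and 0%) and 1 without replicate 2 (0.53% and 1.83%). Differences between lines gave 4 for METTL3 minus YTHDC1, and 2 without the filter on low counts (5.62% and 4.91%) and 16 with the block. They were 17 without replicate 1 (21.5% and 21.6%) and 18 without replicate 2 (13.4% and 11.8%). ZCCHC8 minus YTHDC1 gave 1, and 0 with size factors (7.91% and 5.51%), 0 without the filter (4.14% and 2.46%) and 14 with the block. It gave 19 without replicate 1 (14.7% and 14.5%) and 2 without replicate 2 (5.86% and 6.08%). ZCCHC8 minus METTL3 gave 4, and 1 without the filter (6.47% and 6.06%) and 21 with the block. It gave 27 without replicate 1 (21.5% and 20.8%) and 19 without replicate 2 (11.7% and 16.1%). Ctrl levels gave 0 for METTL3 against YTHDC1 (0 to 20 without 1 replicate) and 14 for ZCCHC8 against METTL3 (43 to 50 without 1 replicate). For ZCCHC8 against YTHDC1 they gave 1, and 0 with size factors (5.28% and 7.66% of all genes) and 28 to 48 without 1 replicate. The median percentage of the 0 min ratio at 180 min in Ctrl was 124.2 in the METTL3 line (104.6 by T-to-C rate), 124 in the YTHDC1 line (102.8, and 121.6 to 124.3 without 1 replicate) and 149.3 in the ZCCHC8 line (112, and 141.2 to 149 without 1 replicate). Leaving out 1 replicate or adding the block also removes variation that the replicates share, and otherwise the cause was not tested. The number of members was 72, and 74 with a minimum of 50 reads and 82 with none. Of 33 called values of single members, 162 of 230 alternative values kept their direction and call, 68 lost the call and 0 reversed.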
